A study of Mus musculus with 27 samples.

Results

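The mRNAs of 7 subunits of the GABA-A receptor, gabra2, gabra3, gabra4, gabra5, gabrb1, gabrb2 and gabrd, were followed in mouse cortex after local injection of R33, R55 or vehicle. The members were found by gene symbol among the 26264 symbols of the table, and all 7 had enough signal to be tested. GABA-A receptors are chloride channels built from several subunits around a central pore, and they carry most fast inhibition in the cortex. Alpha and beta subunits together form the GABA binding site, and the alpha subunit sets much of a receptor's place in the cell and its pharmacology. Receptors with the delta subunit lie outside the synapse and carry tonic inhibition, as many receptors with the alpha5 subunit do.

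The study used 5xFAD mice, whose mutant human transgenes are driven by the neuronal Thy1 promoter. All mice compared were female, carried the transgenes and were 16 weeks old, so no wild-type group enters any comparison. Each received 500 nL into the lateral parietal associative cortex of 1 hemisphere, either vehicle (saline with 3% DMSO and 20% sulfobutylether beta-cyclodextrin) or 10 mM R33 or R55, tool compounds directed at retromer, a complex that sorts membrane proteins at the endosome. After 24 h a cortical block of about 1 mm3 was taken from the injected and the contralateral hemisphere and sequenced as separate libraries. The vehicle group comprised 4 mice and 8 libraries, the R33 group 5 mice and 9 libraries, and the R55 group 5 mice and 10 libraries. The only mouse with 1 library was AE of the R33 group, its injected hemisphere. The mouse labels fall into a single-letter series of 9 mice, 3 per treatment, and a double-letter series of 5 mice with 1 vehicle mouse, which is too few for a correlation within it. Libraries held between 15932197 and 38077027 fragments on genes, with a median of 27441308. Subunits were covered by 730 fragments (gabrd, lowest library) to 16283 fragments (gabrb2, highest library).

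Neuronal genes were high in every library. Snap25, a synaptic vesicle fusion protein, averaged 1663 FPKM, and Slc17a7, the glutamate transporter of cortical excitatory neurons, 530 FPKM. All 4 red blood cell markers were listed at 0 in 27 of 27 libraries. Whether reads of these genes were counted is not known, so the blood content of the blocks was not assessed. The libraries also differed in markers of neighbouring regions, and 2 of them, the injected hemisphere of AD (R33) and the contralateral hemisphere of Q (R55), differed from the rest in how log2 values changed with gene length. Their slopes were -0.75 and -0.58 log2 units for each factor of 10 in length, while the other 25 libraries lay at or above -0.20. Without these libraries the R33 difference from vehicle was -0.17 for gabrb1 in place of -0.30 and -0.11 for gabra2 in place of -0.20, and that between hemispheres was 0.085 for gabrb1 in place of 0.02.

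FPKM are scaled by gene length, and the 7 subunits were set in order on that scale. This order depends on the length used for each gene, which was not checked against the transcripts present. For gabrb1 the median library held 4037 fragments over a length of 14565 bp, and for gabrd 2243 fragments over 1879 bp. Over the 14 mouse means (the average of a mouse's hemispheres), the order was gabrb2 (42.9 ± 6.92 FPKM, SD), gabrd (40.3 ± 7.33), gabra3 (39.6 ± 5.32), gabra4 (31.7 ± 5.90), gabra5 (29.3 ± 11.7), gabra2 (11.2 ± 2.62) and gabrb1 (10.9 ± 2.01). Only gabra5 and gabra2 stood apart by more than their SD ranges, with gabra5 the higher in 14 of 14 mice. gabra3 was above gabra4 in 13 of 14 mice although their SD ranges met. The neighbours gabrb2 and gabrd, gabrd and gabra3, gabra3 and gabra4, gabra4 and gabra5, and gabra2 and gabrb1 overlapped within their SDs. In FPKM, the 5 abundant subunits thus formed a group above gabra2 and gabrb1. Among the other GABA-A subunits, 5 of 12 listed passed the filter of a mean of 1 FPKM, and gabrg3 differed by -0.13 between R55 and vehicle. With each library's trend on gene length removed, gabrg3 was 0.009.

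**Figure D1:**
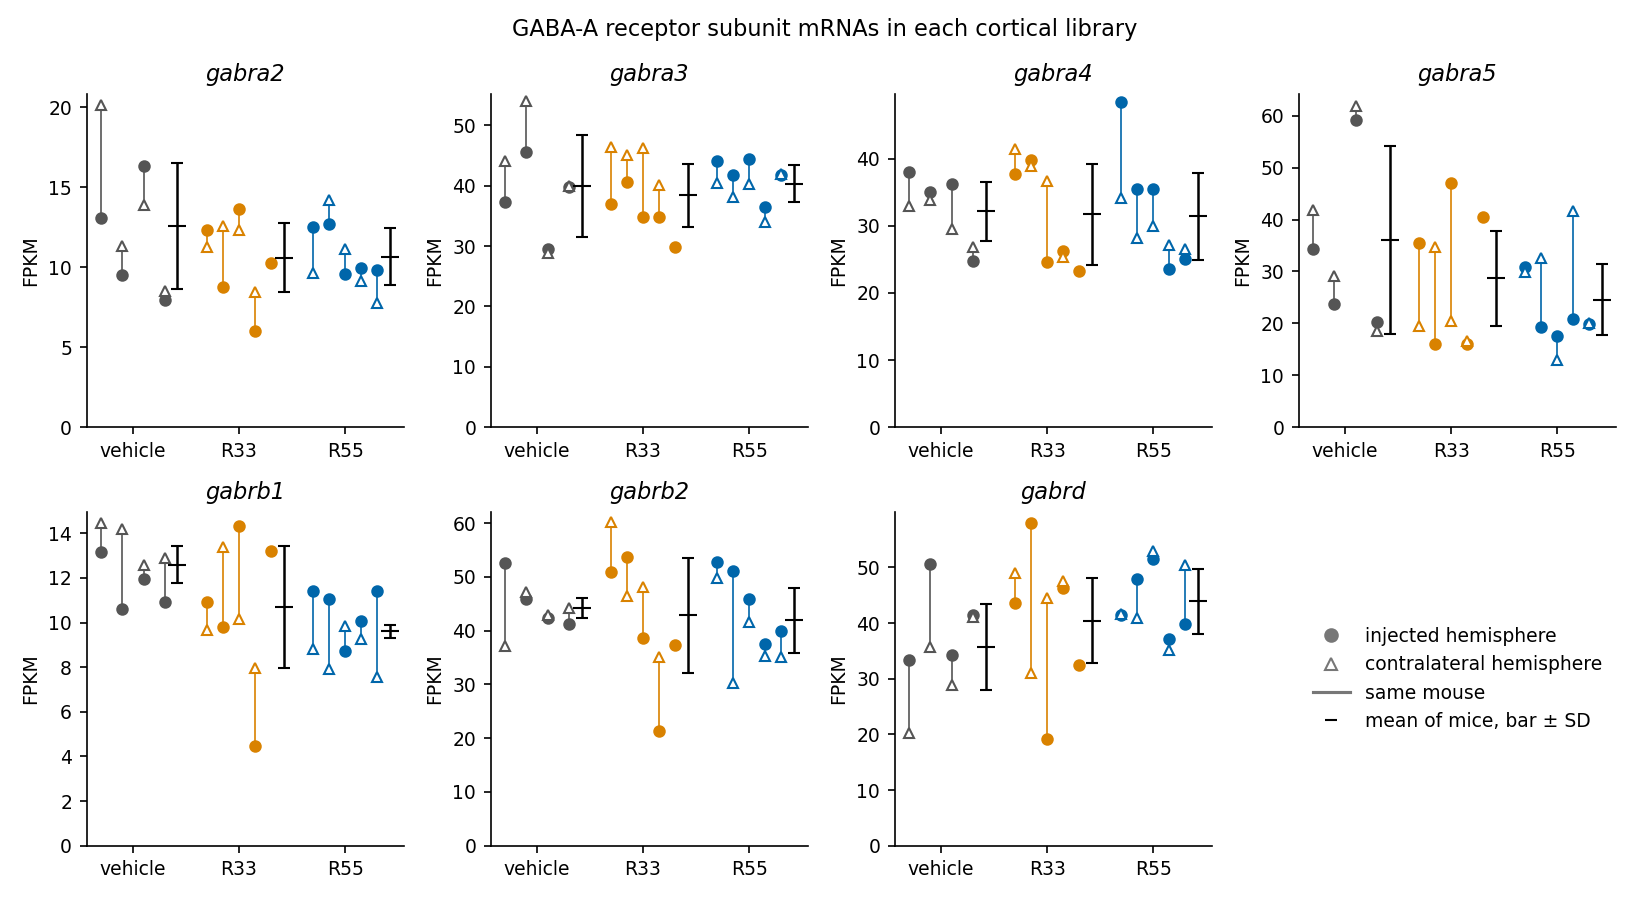
FPKM of each subunit in 27 libraries by treatment, with filled circles for the injected and open triangles for the contralateral hemisphere, lines joining the libraries of a mouse, and the mean of mouse means ± SD at the right of each group. The spread of gabra5 runs from 13.0 to 61.8 FPKM, and the R55 mice sit low for gabrb1.

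Mice differed most in gabra5, whose alpha5 subunit is known for its abundance in the hippocampus and in deep cortical layers. The SD of its log2 mouse means (0.52) was larger than that of 98.7% of tested genes. The spread of the other 6 subunits was also above that of most genes, from 75.2% of tested genes for gabra3 to 92.0% for gabra2. In a piece of tissue, fewer cells of a type and less RNA per cell cannot be told apart, and this holds for every level given here.

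To ask whether R55 altered the subunits, R55-treated and vehicle-treated mice were compared across both hemispheres. Of the 7 subunits, 0 passed an adjusted p-value under 0.05 in limma, against 0.00771% of 12976 tested genes (1 gene, ryr2, a calcium release channel named here after its value was seen). That fit treats the hemispheres of a mouse as separate, and with the mouse modelled as a replicate block, or with 1 value per mouse, 0 genes were called. At an unadjusted p-value under 0.05 the count was 1 of 7, gabrb1, against 8.45% of tested genes (3.74% lower, 4.71% higher). The median log2 fold change of the subunits was -0.09, and that of all tested genes was 0.03. Estimates were negative for 5 subunits and positive for gabra3 and gabrd. Of all tested genes, 39.8% had a negative estimate.

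Among the alpha subunits, gabra5 gave the largest estimate. Vehicle mouse means of gabra5 were 38.1 (J), 26.3 (L), 60.5 (M) and 19.4 FPKM (AH). R55 means were 30.3 (P), 26.0 (Q), 15.3 (R), 31.3 (AA) and 20.1 FPKM (AB). Both groups overlapped widely, with vehicle mouse M high above every other mouse and R the lowest of all 14. The log2 fold change, on the scale of FPKM with 1 added, was -0.48 (95% interval -1.02 to 0.06, SE 0.26; limma, adjusted p = 0.601), and an exact permutation test over mouse means, two-sided, gave p = 0.246. Without mouse M the estimate was -0.19 and without AH -0.73. Within the single-letter mice it was -0.77 and within the double-letter mice 0.32, the latter against 1 vehicle mouse (AH), which had the lowest gabra5 of its group.

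The remaining alpha subunits gave smaller estimates. For gabra2, found in synapses and at the axon initial segment, vehicle mouse means ran from 8.24 to 16.6 FPKM and R55 means from 8.80 to 13.5 FPKM, with a log2 fold change of -0.18 (-0.50 to 0.13). For gabra3 the means were 29.2 to 49.8 FPKM in vehicle and 35.3 to 42.4 FPKM in R55 mice, a difference of 0.04 (-0.16 to 0.24). For gabra4, a frequent partner of the delta subunit in the forebrain, they were 25.8 to 35.5 and 25.4 to 41.3 FPKM, a difference of -0.05 (-0.33 to 0.22). The label series set gabra4 and gabra2 apart: gabra4 was 23.2 to 25.8 FPKM in the 5 double-letter mice and 30.6 to 41.3 FPKM in the 9 single-letter mice, and gabra2 7.23 to 10.3 and 10.4 to 16.6 FPKM. All double-letter mice lay below all single-letter mice for 2 of 7 subunits and 1.68% of tested genes, and above them for 0 of 7 and 0.786%. Endothelial markers, summed, were 18.5 to 26.5 FPKM and 40.9 to 66.6 FPKM, so relations of gabra4 and gabra2 over the 14 mice, given below, include this difference. For gabra2, gabra3 and gabra4 the R55 range lay within or across the vehicle range, and the intervals leave room for moderate change in either direction.

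Of the beta subunits, which are needed for assembly and transport of the receptor to the surface, gabrb1 was lower in R55-treated mice. Its vehicle mouse means were 13.8 (J), 12.4 (L), 12.3 (M) and 11.9 FPKM (AH), and its R55 means were 10.1 (P), 9.47 (Q), 9.28 (R), 9.67 (AA) and 9.49 FPKM (AB). All 5 R55 mice fell below all 4 vehicle mice, a pattern shared with 1.41% of tested genes in that direction, against 1.0% in the other and 2.41% in either. The log2 fold change was -0.36 (-0.64 to -0.08, SE 0.14), which did not pass adjustment in limma (adjusted p = 0.552). Without the R33 mouse AD, which enters the estimate of spread, the adjusted p of gabrb1 in limma was 0.0618, and the count over all genes was 50. An exact permutation test over mouse means, two-sided, gave p = 0.00794, the smallest that 126 splits allow. The estimate was -0.38 in the single-letter mice and -0.30 in the double-letter mice, with 1 vehicle mouse in the latter.

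The gabrb1 difference was larger in the contralateral hemisphere. There, vehicle libraries read 14.5 (J), 14.2 (L), 12.6 (M) and 12.9 FPKM (AH), and R55 libraries 8.80 (P), 7.91 (Q), 9.84 (R), 9.28 (AA) and 7.56 FPKM (AB), with no overlap, as all R55 libraries lay below all vehicle libraries there for 1.36% of tested genes. In the injected hemisphere the vehicle libraries lay at 10.6 to 13.2 FPKM and the R55 libraries at 8.71 to 11.4 FPKM, and the groups overlapped (0.578% of tested genes were lower in all R55 libraries there, and 0 of 7 subunits). Fitted alone, the contralateral libraries gave -0.59 and the injected libraries -0.14. The interaction of R55 with hemisphere for gabrb1 was 0.45 (-0.10 to 1.01; limma, adjusted p = 0.999) in a fit that leaves the mouse out. With the mouse modelled as a replicate block it was below an unadjusted p of 0.05 in limma (adjusted p = 0.815), and with the length trend removed the estimate fell to 0.25. Whether the gabrb1 difference depends on the hemisphere was thus not settled by these fits. In the fit without the mouse, 0 of 7 interactions reached an unadjusted p-value under 0.05, against 1.84% of tested genes (1.24% lower, 0.601% higher). For R33 by hemisphere it was also 0 of 7, against 0.378% (0.301% lower, 0.0771% higher), and no interaction passed adjustment for either compound (0.0% of tested genes).

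Gene length moved with the gabrb1 result. Its length in the table, 14565 bp, exceeded that of 99.5% of tested genes, and the slope on length averaged 0.10 ± 0.08 in vehicle mice (SD, n = 4), -0.02 ± 0.26 in R33 mice (n = 5) and -0.06 ± 0.11 in R55 mice (n = 5). With each library's length trend removed, the log2 fold change of gabrb1 was -0.13 (limma, adjusted p = 0.785), 4 of 5 R55 mice lay below all vehicle mice, and the exact permutation p was 0.0238. Without the libraries of steepest slope it was -0.34. The part of gene length in the gabrb1 difference was otherwise not tested.

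The second beta subunit, gabrb2, is part of many synaptic receptors. Its mouse means ran from 42.6 to 46.5 FPKM in vehicle and from 36.4 to 51.3 FPKM in R55 mice, so 3 R55 mice lay below and 1 above all vehicle mice. The log2 fold change of gabrb2 was -0.09 (-0.38 to 0.20) and turned to 0.01 with the length trend removed.

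After gabra5 and gabrb1, the delta subunit gave the next largest estimate in either direction. Vehicle mouse means of gabrd were 26.9 (J), 43.1 (L), 31.6 (M) and 41.3 FPKM (AH), and R55 means were 41.5 (P), 44.4 (Q), 52.2 (R), 36.2 (AA) and 45.1 FPKM (AB). Vehicle mice J and M were low, 3 of 5 R55 mice lay above all vehicle mice, and the groups overlapped. The log2 fold change of gabrd was 0.32 (-0.02 to 0.66, SE 0.16; limma, adjusted p = 0.589), with a two-sided exact permutation p of 0.127. It was 0.19 without J, and 0.47 in the single-letter mice and -0.04 in the double-letter mice, which hold 1 vehicle mouse. In contralateral libraries alone gabrd differed by 0.51 and in injected libraries alone by 0.13.

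**Figure D2:**
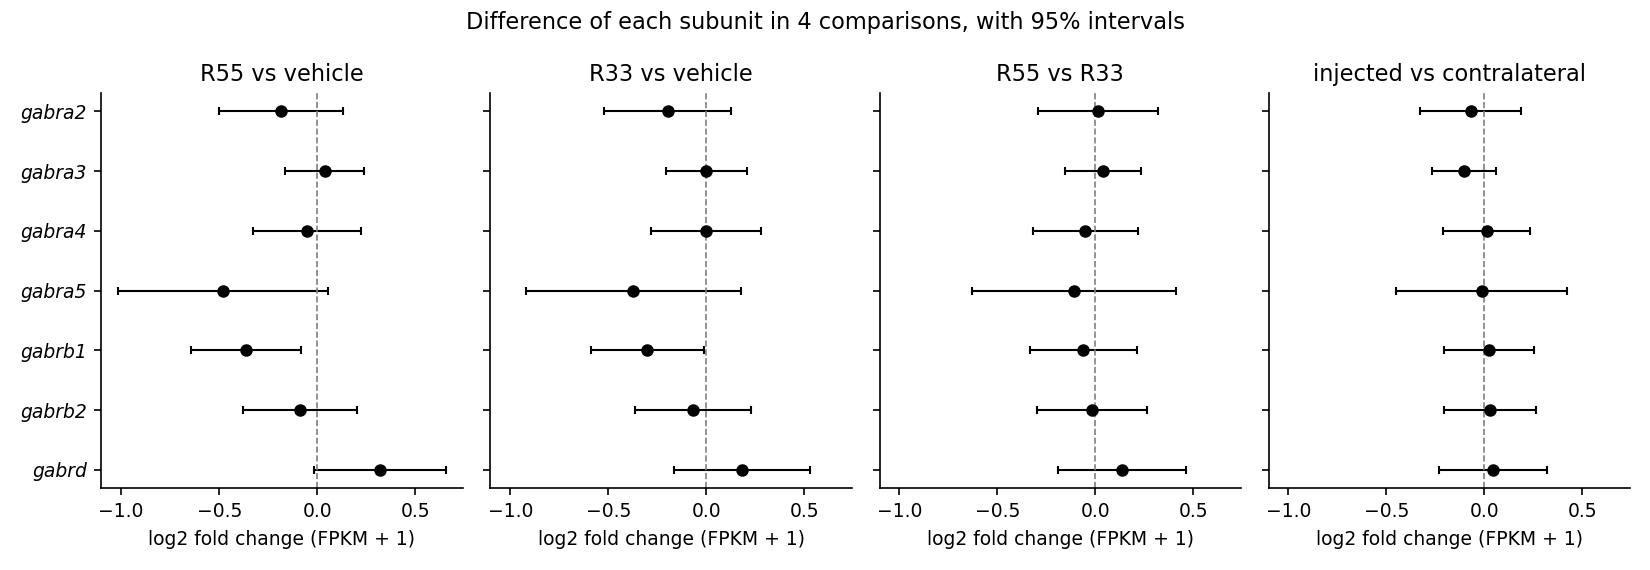
Log2 fold change of FPKM with 1 added for each subunit in 4 comparisons, with points for the limma estimate and bars for the 95% interval. Only the intervals of gabrb1 against vehicle leave out 0, before any adjustment for the 12976 genes tested. The fit behind these intervals treats the hemispheres of a mouse as separate libraries, although they are not independent.

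For R33 the vehicle mice were the same, so its values and those of R55 are not independent. Again 0 of 7 subunits passed the adjusted threshold in limma, against 0.0% of tested genes, and at an unadjusted p-value under 0.05 the count was 1 of 7, against 5.87% (2.68% lower, 3.19% higher). That subunit was gabrb1, with R33 mouse means of 10.3 (K), 11.6 (N), 12.3 (O), 6.20 (AD) and 13.2 FPKM (AE). This fit again treats the hemispheres of a mouse as separate. The unadjusted p-value of gabrb1 in limma was under 0.05 in 8 of 15 settings, this fit included. It was so in 9 of the 14 fits that leave out a mouse. Mouse AD was far below the rest, and AE stood above 3 of 4 vehicle mice. For 0 of 7 subunits did all R33 mice lie below all vehicle mice (0.416% of tested genes) or above them (0.355%; 0.771% in either direction). The log2 fold change of gabrb1 was -0.30 (-0.59 to -0.01, limma, adjusted p = 0.834), with an exact permutation p of 0.246, and without AD it was -0.12. With the length trend removed and all mice kept it was also -0.12.

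R33 values of gabra5 were 27.5 (K), 25.4 (N), 33.7 (O), 16.3 (AD) and 40.6 FPKM (AE), and those of gabrd were 46.3 (K), 44.6 (N), 31.9 (O), 47.0 (AD) and 32.4 FPKM (AE). Mice with high gabra5 (AE, O) had low gabrd, and the mouse with the lowest gabra5 (AD) had the highest gabrd of the group. Against vehicle the log2 fold changes were -0.37 (-0.92 to 0.18) for gabra5 and 0.18 (-0.16 to 0.53) for gabrd. With each mouse left out they ran from -0.62 to -0.085 for gabra5 and from 0.055 to 0.30 for gabrd. In contralateral libraries alone they were -0.63 and 0.46, and in injected libraries alone -0.15 and -0.070. Those of gabra2, gabra3, gabra4 and gabrb2 were -0.20, 0.00, 0.00 and -0.07.

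Compared directly at the same dose and time, R55 and R33 differed in 0 of 7 subunits at the adjusted threshold (0.0% of tested genes) and in 0 of 7 at an unadjusted p-value under 0.05 (1.15%; 0.416% lower, 0.732% higher). The largest estimate was 0.13 for gabrd (-0.19 to 0.46), and the widest interval was that of gabra5, -0.11 (-0.63 to 0.41). All R55 mice lay below all R33 mice for 0 of 7 subunits (0.0231% of tested genes) and above them for 0 of 7 (0.0771%; 0.1% in either direction). These intervals do not show that the compounds act alike.

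The injection itself was examined by comparing hemispheres. The 7 subunits gave estimates from -0.10 (gabra3) to 0.04 (gabrd), with 0 of 7 passing at the adjusted threshold in limma (0.0% of tested genes) and 0 of 7 at an unadjusted p-value under 0.05 (3.47%; 2.01% lower, 1.46% higher). Of the 13 mice with both hemispheres, the injected side was higher in 6 for gabra2, 5 for gabra3, 8 for gabra4, 5 for gabra5, 6 for gabrb1, 7 for gabrb2 and 7 for gabrd. By treatment the counts were less even for some subunits. In vehicle, R33 and R55 mice the injected side was higher in 1 of 4, 0 of 4 and 4 of 5 for gabra3, in 0 of 4, 2 of 4 and 4 of 5 for gabrb1, in 1 of 4, 1 of 4 and 5 of 5 for gabrb2, and in 4 of 4, 1 of 4 and 2 of 5 for gabrd. The counts were 1 of 4, 2 of 4 and 3 of 5 for gabra2. For gabra4 they were 3 of 4, 2 of 4 and 3 of 5, and for gabra5 1 of 4, 2 of 4 and 2 of 5. The share of tested genes with counts as uneven was not computed, and these counts were not tested.

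The largest differences between hemispheres of a mouse were those of gabra5 and gabrd, and they ran in opposite directions. In mouse O (R33), gabra5 was 47.0 FPKM in the injected and 20.5 FPKM in the contralateral block, and gabrd was 19.2 and 44.6 FPKM. In mouse N (R33) the sides were exchanged, with gabra5 at 16.1 injected and 34.7 FPKM contralateral, and gabrd at 58.0 and 31.1 FPKM. The injected block of N also held the most striatal markers (drd1, drd2, adora2a and ppp1r1b), 198 FPKM summed against 43.8 FPKM contralateral. The injected block of L (vehicle) held 143 FPKM of these, and thalamic markers (tcf7l2, lef1 and prkcd) stood out in the injected blocks of P (R55, 66.1 FPKM) and J (vehicle, 48.2 FPKM), with 16.8 FPKM or less elsewhere. The injected block of P also had the highest gabra4 of all libraries, 48.5 FPKM, and the part of these markers in the results was not tested. The ratio of gabra5 to gabrd, both per length, ran from 0.25 to 2.44 over the libraries. It was above 1 in 8 of 27 libraries, 4 of 8 in vehicle, 3 of 9 in R33 and 1 of 10 in R55. Those of vehicle were both hemispheres of mice J and M, and the others came from AE, N and O (R33) and AA (R55). Libraries of a mouse are not independent, and these counts were not tested.

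Across the 14 mouse means gabra5 and gabrd were inversely related, with Pearson r = -0.79 (permutation p = 0.00055, adjusted 0.0132) and Spearman rho = -0.82 (adjusted p = 0.0206), where p-values were adjusted over 147 relations. Without M and R, the mice farthest out, r was -0.77. It was -0.76 within the 9 single-letter mice and -0.75 after the treatment means were removed. The hemisphere differences of 13 mice gave r = -0.76 (permutation p = 0.00243, adjusted 0.0223) and rho = -0.80 (adjusted 0.0344), but -0.44 without O and N, so that relation rests largely on these mice.

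Hippocampal markers moved with both genes, and less closely with others. The 4 markers (prox1, c1ql2, wfs1 and spink8) were all tested, wfs1 was the most abundant, and spink8 was at 0 in 1 library. Their summed level was 82.6 (J), 43.3 (L), 123 (M) and 34.7 FPKM (AH) in vehicle mice, 49.99 (K), 53.2 (N), 73.0 (O), 30.3 (AD) and 92.4 FPKM (AE) in R33 mice, and 57.1 (P), 59.0 (Q), 35.3 (R), 64.4 (AA) and 36.8 FPKM (AB) in R55 mice. Mouse M was the highest in these markers as in gabra5, and mouse O held 100 FPKM on the side with high gabra5 and 45.9 FPKM on the other.

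The mean log2 level of the hippocampal list followed gabra5 with r = 0.92 (rho = 0.93, permutation p = 1e-05, the smallest the 100000 permutations give, adjusted 0.00147, rho adjusted 0.00294) and gabrd with r = -0.79 (rho = -0.79, permutation p = 0.00092, adjusted 0.015, rho adjusted 0.0254). Without the farthest mice r was 0.90 and -0.72, and within the single-letter mice 0.90 and -0.75. With this level as a covariate, chosen after seeing the data, the R55 difference was -0.25 for gabra5 (limma, adjusted p = 0.636) and 0.21 for gabrd. For gabra3 the relation with the hippocampal list was r = -0.67 (rho = -0.56, adjusted permutation p = 0.0452, rho 0.163; -0.57 without R and M, -0.72 in single-letter mice), and for gabra2 r = 0.66 (rho = 0.54, adjusted permutation p = 0.0577, rho 0.164; 0.63 and 0.86). The authors describe keeping the corpus callosum out of the dissected blocks, and the part of neighbouring tissue in these differences was not tested beyond that covariate.

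**Figure D3:**
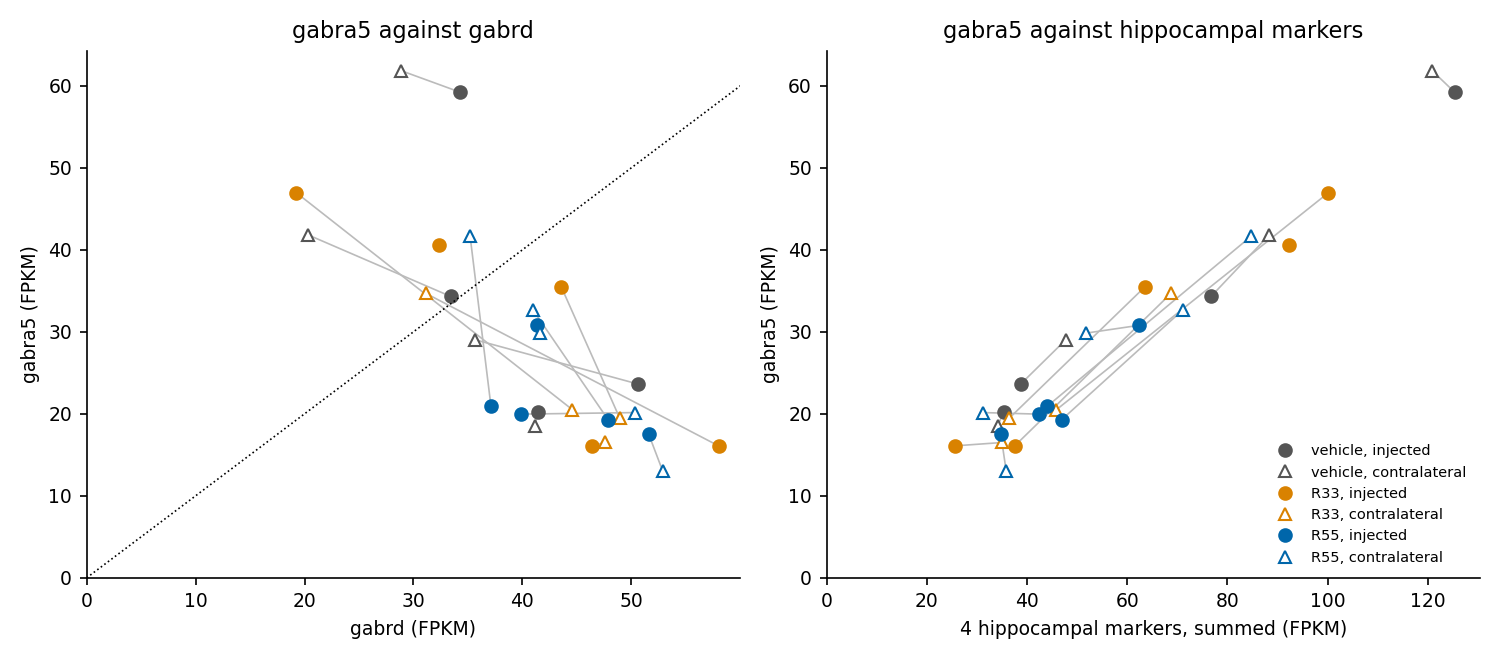
gabra5 (FPKM) against gabrd (FPKM, left) and against the summed FPKM of 4 hippocampal markers (right) in 27 libraries, with filled circles for injected and open triangles for contralateral libraries, grey lines joining the hemispheres of a mouse and a dotted line at equal levels. Libraries with high gabra5 had low gabrd and high hippocampal markers, and 8 of 27 lie above the line.

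Markers of upper cortical layers took the other side. Their summed level (cux2, rorb, calb1 and lamp5, with lamp5 the most abundant and none at 0) ran from 150 to 224 FPKM in vehicle, 154 to 257 FPKM in R33 and 183 to 292 FPKM in R55 mice. The list rose with gabrd (r = 0.85, rho = 0.87, permutation p = 0.00016, adjusted 0.00588, rho adjusted 0.00392; 0.88 without AA and R, 0.93 in single-letter mice) and fell with gabra5 (r = -0.75, rho = -0.71, permutation p = 0.00194, adjusted 0.0223, rho adjusted 0.0591; -0.74 and -0.88). Mouse O again differed between sides, with 106 FPKM injected and 268 FPKM contralateral. The relation of gabra5 with 5 markers of deep cortical layers did not pass (r = 0.41, rho = 0.22, adjusted permutation p = 0.297, rho 0.687). Its r was -0.12 without R and AB and 0.46 in single-letter mice. Pan-neuronal markers (rbfox3, snap25 and syt1, none at 0) followed gabrd with r = 0.82 (rho = 0.72, adjusted permutation p = 0.00617, rho adjusted 0.0591; 0.71 without J and K).

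Interneuron markers (gad1, gad2, pvalb, sst, vip and lamp5, with sst the most abundant and none at 0) were inversely related to gabra2 (r = -0.86, rho = -0.73, adjusted permutation p = 0.00588, rho 0.0591), gabrb1 (r = -0.77, rho = -0.75, adjusted 0.015, rho 0.0415) and gabra5 (r = -0.74, rho = -0.67, adjusted 0.0225, rho 0.066). Without J and M these were -0.71, -0.79 and -0.53, and in single-letter mice -0.80, -0.70 and -0.72. Their summed mouse means ran from 527 to 686 FPKM in vehicle, 603 to 835 FPKM in R33 and 618 to 756 FPKM in R55 mice. In AA, Q and AB, 3 of the 5 R55 mice with low gabrb1, these markers were above every vehicle mouse, and their part in the result was not tested. gabrb1 also rose with oligodendrocyte precursor markers (pdgfra and cspg4; r = 0.78, rho = 0.54, adjusted permutation p = 0.0223, rho 0.164; 0.62 without AD and K, 0.49 in single-letter mice), whose estimates in R55 were -0.06 and -0.18. After removal of the length trend the estimates of pdgfra and cspg4 were 0.055 and -0.079. The part of these markers was likewise not tested.

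The strongest positive relation between members was that of gabra4 and gabrb2 (r = 0.81, rho = 0.91, permutation p = 0.00011, adjusted 0.00588, rho adjusted 0.00294). It was 0.80 without AE and P, 0.88 within the single-letter mice and 0.81 after removal of the treatment means. Of the 21 pairs of members 14 were positive, and 3 passed an adjusted permutation p-value of r under 0.05. The last of these was gabra2 with gabra5 (r = 0.71, rho = 0.62, adjusted permutation p = 0.0371, rho 0.107). Its r was 0.53 without J and M and 0.74 in single-letter mice. The pair of gabrb1 and gabrd passed by rho only (r = -0.67, rho = -0.80, adjusted permutation p = 0.0516, rho 0.0243). Its r was -0.66 without AD and J and -0.83 in single-letter mice. Of all tested genes, 97.6% had a weaker or opposite r with gabrb2 than gabra4 had, 95.8% with gabra5 than gabra2 had, and 99.3% with gabrd than gabra5 had. gabra4 was also inversely related to microglial markers (r = -0.80, rho = -0.83, adjusted permutation p = 0.0173, rho 0.0206; -0.73 without P and AA, -0.66 in single-letter mice). gabra2 rose with endothelial markers (r = 0.70, rho = 0.70, adjusted permutation p = 0.0404, rho 0.0621; 0.77 without AA and AE, 0.16 in single-letter mice). The positive relation of gabra4 with endothelial markers (r = 0.75, rho = 0.50, adjusted permutation p = 0.0223, rho 0.198) turned to -0.73 within the single-letter mice. gabrb2 and gabrb1 rose with the slope on gene length (r = 0.83, rho = 0.67, adjusted permutation p = 0.0132, rho 0.066, and r = 0.81, rho = 0.60, adjusted 0.0223, rho 0.115), and without AD and Q these were 0.63 and 0.43. That slope is fitted over all tested genes, so long genes tend to rise with it by construction. gabrb2 and gabrb1 are longer than 94.8% and 99.5% of tested genes. A weaker or opposite r with the slope was held by 98.0% and 97.4% of tested genes. gabra3 followed the number of fragments per library (r = 0.77, rho = 0.70, adjusted permutation p = 0.0178, rho 0.0621; 0.50 without M and L, 0.86 in single-letter mice).

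**Figure D4:**
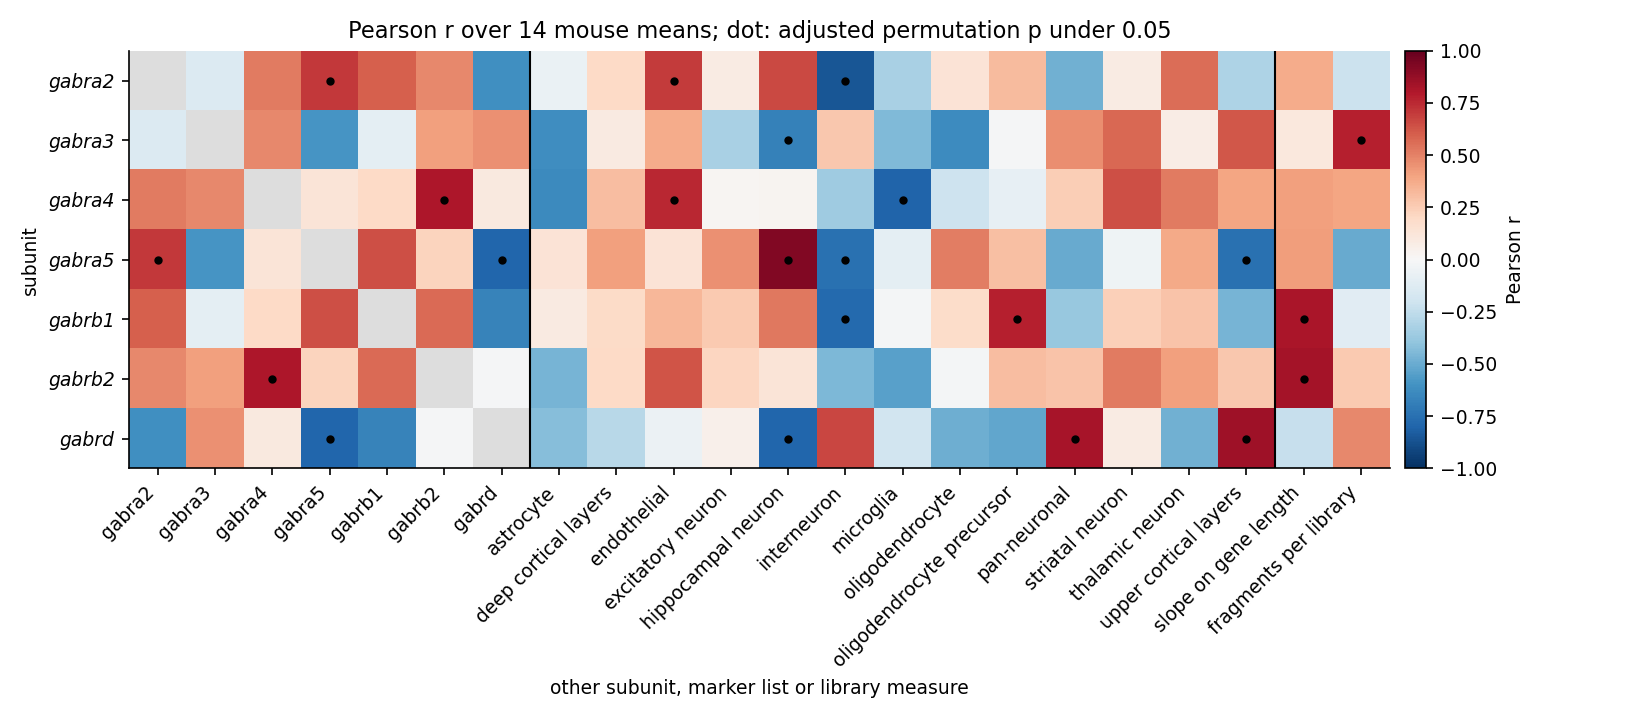
Pearson r over 14 mouse means between each subunit and the other subunits, 13 marker lists, the slope on gene length and the fragments per library, from blue (negative) to red (positive), with dots where the adjusted permutation p is under 0.05. The darkest cells are gabra5 with hippocampal markers (0.92) and gabra2 with interneuron markers (-0.86).

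In the genome the members lie on 5 chromosomes (GRCm39). gabra2 (chr5:71114573-71253662, minus strand), gabra4 (chr5:71721738-71815722, minus strand) and gabrb1 (chr5:71815456-72319431, plus strand) share a stretch of 1204859 bp. The 5' ends of gabra4 and gabrb1 overlap by 267 bp, 101 of them exonic in both genes, which is 1.003% of the exonic bases of gabra4 and 0.598% of those of gabrb1. The levels of these neighbours were hardly related over mice (r = 0.20, rho = 0.15, adjusted permutation p = 0.665). gabra5 lies at chr7:57055164-57240831, gabrb2 at chr11:42310493-42523417, gabrd at chr4:155469407-155482872 and gabra3 at chrX:71476275-71700723. The strand setting of the authors' counting is not given in the sources used here, so reads from shared exons cannot be assigned to 1 gene. Genes on the opposite strand share 4.31% of the exonic bases of gabrb1, 3.39% of those of gabra2 and 3.24% of those of gabrd. The share of gabra5 was larger and is not reported here.

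Start regions are shown for gabra4 and gabrb2, which moved together, and for gabrb1, the neighbour of gabra4 that did not. They are RefSeq windows of 300 bases (GRCm38.p6), from 250 before to 50 after the start, and 6 of the 7 members had 1 or more, 10 windows in all. Capitals mark the GC box GGGCGG or its reverse CCGCCC, and the TATA box TATAAA, searched on both strands; no marked motif overlaps another. The windows are gabra4 at chr5:71658259-71658558 (minus strand), gabrb2 at chr11:42420190-42420489 (plus strand) and gabrb1 at chr5:71657671-71657970 (plus strand).
gabra4: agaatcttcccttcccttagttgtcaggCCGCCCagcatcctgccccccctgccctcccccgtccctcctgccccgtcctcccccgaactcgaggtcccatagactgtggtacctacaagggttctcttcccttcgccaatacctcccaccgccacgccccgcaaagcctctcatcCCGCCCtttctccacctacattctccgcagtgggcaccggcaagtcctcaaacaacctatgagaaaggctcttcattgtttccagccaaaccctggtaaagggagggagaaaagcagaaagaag
gabrb2: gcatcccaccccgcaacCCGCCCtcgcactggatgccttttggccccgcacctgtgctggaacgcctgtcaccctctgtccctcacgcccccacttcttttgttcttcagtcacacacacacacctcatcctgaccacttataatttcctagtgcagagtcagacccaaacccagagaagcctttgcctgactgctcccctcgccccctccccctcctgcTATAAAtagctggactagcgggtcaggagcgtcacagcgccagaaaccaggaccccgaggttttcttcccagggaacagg
gabrb1: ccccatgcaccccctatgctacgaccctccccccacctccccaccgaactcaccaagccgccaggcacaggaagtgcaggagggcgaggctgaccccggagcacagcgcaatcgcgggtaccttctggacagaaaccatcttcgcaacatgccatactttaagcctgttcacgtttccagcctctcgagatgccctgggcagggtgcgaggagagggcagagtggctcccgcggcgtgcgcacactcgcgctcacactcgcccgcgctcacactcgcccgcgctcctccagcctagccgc
The gabra4 window held 2 GC boxes, the gabrb2 window shown 1 GC box and a TATA box 30 bases before the start, and the gabrb1 window neither. gabrb2 has 3 windows, and the other 2 held neither motif; gabrb1 has 2 windows, both without. A GC box was found in 35.7% of 32851 windows and in 3 of 10 member windows, and a TATA box in 13.6% and 3 of 10, of which 2 are overlapping gabra3 windows that hold the same site. The cyclic AMP response element TGACGTCA (1.79% of all windows) and the Egr site GCGTGGGCG (0.612%) were in 0 of 10.

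Genes around the receptor gave few differences between R55 and vehicle, and 0 passed the adjusted threshold in any of these lists. Among 19 scaffold and partner genes of inhibitory synapses, 7 were higher and 12 lower, with a median log2 fold change of -0.03. The lowest p-value belonged to shisa7, a receptor partner that speeds GABA-A kinetics, at -0.32 (limma, adjusted p = 0.545), while mdga1 was -0.49, slitrk3 -0.25 and gabarapl1, the most abundant at 384 FPKM, 0.09. Of 8 tested genes of GABA synthesis, transport and breakdown, 7 had positive estimates and gad2 a negative one (-0.11), with a median of 0.09 and 0 at an unadjusted p-value under 0.05. Of all tested genes 39.8% were negative. The positive ones included gad1, which makes GABA (0.12), slc32a1, which loads it into vesicles (0.11), and the transporter slc6a13 (0.45).

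The 5 genes of the GABA-B receptor had a median of -0.10, with gabbr1 at -0.04, kctd16 at -0.24, kctd8 at 0.14 and kctd12 at -0.13. Removal of the length trend turned kctd16 to 0.040, and the median was then -0.032. The 8 genes of chloride balance had a median of 0.01, with slc12a5, the chloride exporter of mature neurons, at -0.07, slc12a2 at -0.11, wnk1 at -0.16 and slc4a3 at 0.13. After removal of the length trend wnk1 turned to 0.028 and slc12a2 was -0.059. Positive estimates were then held by 6 of these 8 genes, in place of 4. All 15 ionotropic glutamate receptor subunits had negative estimates (median -0.13), where 39.8% of tested genes did. The largest were those of grin2b (-0.62; limma, adjusted p = 0.327), gria1 (-0.46) and grin2a (-0.37), and grin1, the most abundant, had -0.06. An unadjusted p-value under 0.05 was reached by 3 of the 15, among them grin2b and grin2a but not gria1, against 3.74% of tested genes on the lower side. With the length trend removed 14 of 15 were negative (48.8% of tested genes), with a median of -0.059, and grin2b, grin2a and gria1 were -0.28, -0.13 and -0.42.

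The mean profile of the 7 subunits over 14 mice, each scaled to its own spread, had among its closest matches virma (r = 0.96), zmym2 (0.95), slitrk4 (0.95) and acsl4 (0.95), and was most opposed to tle5 (-0.97), fis1 (-0.96), cndp2 (-0.95), ccdc85b (-0.95) and ptpa (-0.94). These values describe the 14 mice and carry no test. Mouse AD lay lowest in the profile (-1.24, the next -0.55) and holds the library of steepest length slope. The matches named are 5280 to 8543 bp long and the opposed genes 1102 to 4401 bp. gabrb2 (0.93) and gabra4 (0.87) followed the profile closely, and gabra2 (0.69) and gabrb1 (0.60) less so. Lower r was found for gabra3 (0.41), gabra5 (0.35) and gabrd (-0.14). Each member is part of the profile, which raises its own r, and the value for an unrelated member was not computed.

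**Figure D5:**
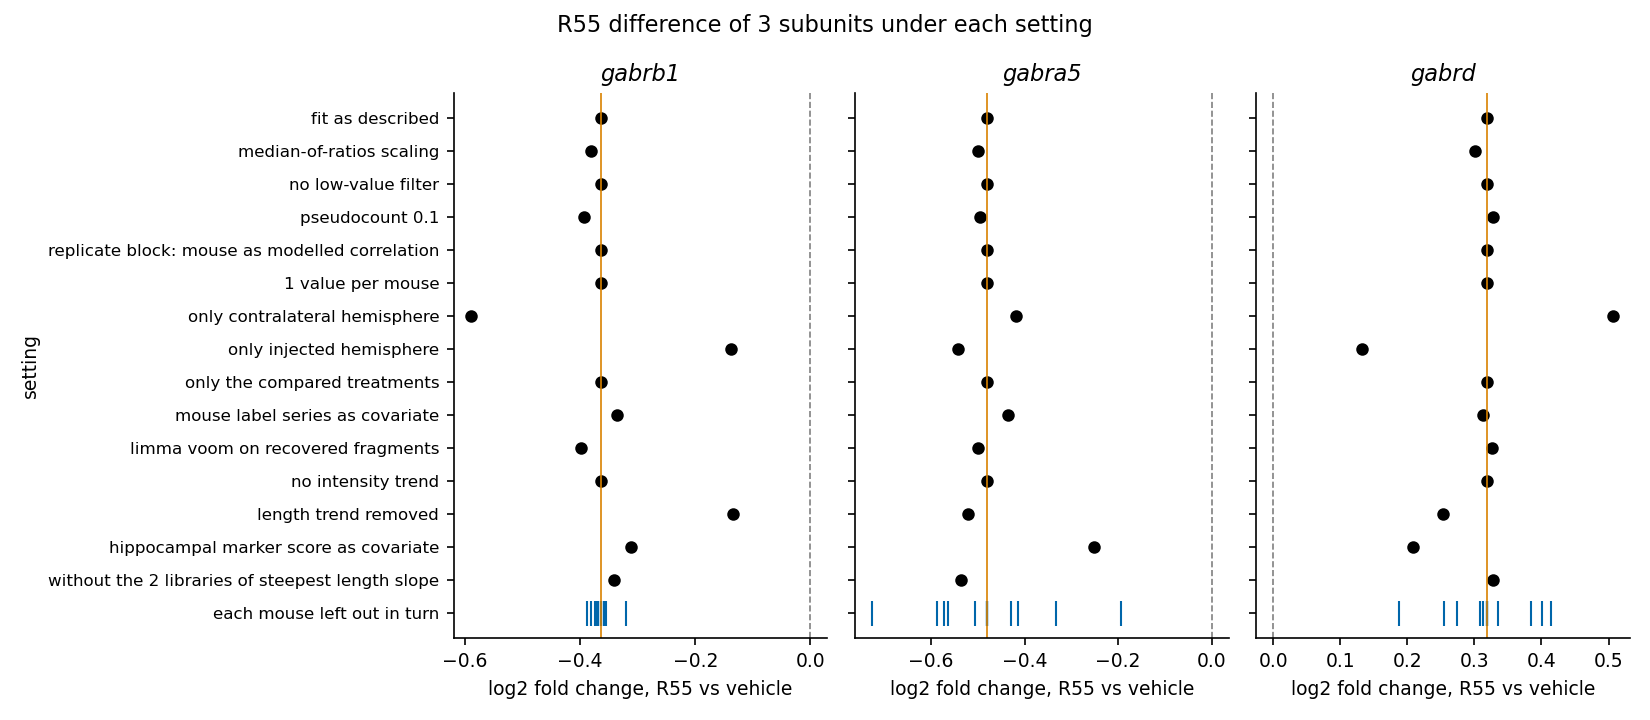
Log2 fold change between R55 and vehicle for gabrb1, gabra5 and gabrd under each setting, with points for single settings, blue ticks for the fits that leave out a mouse, an orange line at the value of the fit as described and a dashed line at 0. gabrb1 ranges from -0.59 (contralateral libraries alone) to -0.13 (length trend removed); values within each label series are not shown.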

How the data were processed

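RNA was measured in cortical blocks of 14 mice. The paper gives 6 mice per treatment group, and the labels of the libraries used here give 4 (vehicle), 5 (R33) and 5 (R55). The authors aligned paired-end reads of stranded mRNA libraries to GRCm39 with HISAT2 and deposited FPKM per gene symbol, and used DESeq2 for their own tests. Of 32 libraries in the table, 27 were used, grouped by treatment and hemisphere, and 5 were not used here. Members and lists were chosen with earlier results of these data known.

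Because the deposited unit is FPKM and not counts, limma was run on log2 of FPKM with 1 added, for the 12976 genes averaging 1 FPKM or more, with treatment and hemisphere as additive factors, an intensity trend and Benjamini-Hochberg adjustment, two-sided, called at 0.05. Of the values, 100.0% were whole multiples of 1 fragment within 0.01, which gave fragments and gene lengths. Libraries held 15932197 to 38077027 fragments.

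Hemispheres are paired by the mouse label, since both come from the same animal. Their deviations from the group means correlated at -0.08 to 0.65 (median 0.45), above 0.1 in 11 of 13 mice. The modelled correlation within a mouse was 0.347.

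Named genes were the members, and from each list the most abundant gene, any called gene and up to 3 with the largest R55 difference, and the 5 genes most and least like the members' mean profile. Some items that this rule would name are not reported here. Exact permutation tests used mouse means, and correlations 100000 permutations. Positions came from GENCODE on GRCm39 and windows from RefSeq on GRCm38.p6.

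Alternatives were other scaling, no filter, a pseudocount of 0.1, the mouse as a block, 1 value per mouse, each hemisphere, only the compared treatments, the label series, limma voom, no intensity trend, removal of the length trend (lowess, span 0.3) and each mouse left out. Tables and figures were made in Python (3.11.15) by pandas (2.3.3), scipy (1.17.1), numpy (2.4.6) and matplotlib (3.10.9); fits were made in R (4.3.3) by statmod (1.5.0) and limma (3.58.1). The fitting code was tried on simulated data first.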

Additional observations from a re-analysis of the deposited data

How the results depend on the processing

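No subunit passed the adjusted threshold under any alternative. The lowest adjusted p in limma was 0.0618, for gabrb1 in R55 against vehicle without mouse AD. Its estimate held its sign throughout, from -0.59 (contralateral) to -0.13 (length trend removed), and from -0.39 to -0.32 with each mouse left out. The hippocampal covariate and the fit without the steepest 2 libraries were chosen after seeing the data.

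Of all tested genes, 1 was called between R55 and vehicle. The count was 0 with median-of-ratios scaling, 0 with no filter, 0 with the mouse as a replicate block (modelled correlation), 0 with 1 value per mouse, 0 in contralateral and 0 in injected libraries alone, 0 with the label series, 0 with the length trend removed and 0 with the hippocampal covariate. It was 12 with only the compared treatments and 4 without the steepest 2 libraries, and 0 to 50 with each mouse left out (50 without AD). R33 against vehicle gave 1 with no filter, and R55 against R33 gave 0 to 2 with each mouse left out.

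R55 against vehicle (log2), estimates that changed sign: gabra3 was 0.0373 and became -0.0676 with contralateral libraries, -0.018 with the hippocampal covariate, -0.0997 to 0.15 with each mouse left out. gabra4 was -0.0505 and became 0.017 with the label series, -0.15 to 0.0171 with each mouse left out. gabrb2 was -0.0881 and became 0.0124 with the length trend removed.

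R33 against vehicle (log2), estimates that changed sign: gabra3 was 0.000468 and became -0.0151 with median-of-ratios scaling, -0.0124 with the replicate block as modelled correlation, -0.043 with 1 value per mouse, -0.0934 with injected libraries, -0.000358 with the length trend removed, -0.042 with the hippocampal covariate, -0.14 to 0.11 with each mouse left out. gabra4 was -4.24e-05 and became 0.19 with contralateral libraries, 0.0047 with only the compared treatments, 0.0363 with the label series, 0.00151 with the length trend removed, 0.000875 with the hippocampal covariate, 0.0342 with the steepest 2 libraries left out, -0.0989 to 0.0842 with each mouse left out. gabrb2 was -0.0686 and became 0.13 with contralateral libraries, 0.0134 with the length trend removed, 0.0504 with the steepest 2 libraries left out, -0.18 to 0.0981 with each mouse left out. gabrd was 0.18 and became -0.0698 with injected libraries.

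R55 against R33 (log2), estimates that changed sign: gabra2 was 0.0145 and became -0.11 with contralateral libraries, -0.11 with the steepest 2 libraries left out, -0.12 to 0.098 with each mouse left out. gabra3 was 0.0368 and became -0.19 with contralateral libraries, -0.00436 to 0.0824 with each mouse left out. gabra4 was -0.0505 and became 0.13 with injected libraries, -0.15 to 0.0371 with each mouse left out. gabra5 was -0.11 and became 0.21 with contralateral libraries, -0.28 to 0.0374 with each mouse left out. gabrb1 was -0.0623 and became 0.076 with injected libraries, -0.25 to 0.00788 with each mouse left out. gabrb2 was -0.0195 and became 0.22 with injected libraries, 0.00512 with the label series, -0.19 to 0.0951 with each mouse left out.

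Injected against contralateral (log2), estimates that changed sign: gabra2 was -0.069 and became 0.0174 with the steepest 2 libraries left out. gabra4 was 0.0111 and became -0.0277 to 0.0549 with each mouse left out. gabra5 was -0.0145 and became 0.000327 with the label series, 0.0758 with the steepest 2 libraries left out, -0.10 to 0.068 with each mouse left out. gabrb1 was 0.0233 and became -0.00427 with the mouse as a fixed replicate block (paired), -0.00937 with the length trend removed, -0.0179 to 0.0676 with each mouse left out. gabrb2 was 0.0274 and became -0.0298 to 0.0713 with each mouse left out. gabrd was 0.043 and became -0.0218 to 0.13 with each mouse left out.

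R55 by hemisphere (log2), estimates that changed sign: gabra4 was 0.0491 and became -0.0357 to 0.14 with each mouse left out. gabra5 was -0.13 and became -0.29 to 0.0521 with each mouse left out.

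R33 by hemisphere (log2), estimates that changed sign: gabra2 was 0.0232 and became -0.11 to 0.15 with each mouse left out.

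Within the label series the double-letter mice (1 vehicle mouse) gave other signs against vehicle. For R55 these were gabra2 0.14, gabra3 -0.054, gabra5 0.32 and gabrd -0.035, and for R33 gabra2 0.052, gabra3 -0.25, gabra5 0.40 and gabrd -0.079. In single-letter mice gabra4 was 0.023 (R55) and 0.073 (R33), and gabrb2 0.00303 and 0.14. For R55 against R33, gabra2 was -0.023 in single-letter mice, and gabra4 0.059, gabrb1 0.075 and gabrb2 0.20 in double-letter mice.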
